A study of Mus musculus with 40 samples.

Results

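The immediate early genes of neurons were examined in cerebral cortex and cerebellum of mice that differed in age, genotype and vitamin E supply. The group consisted of 10 genes, namely Fos, Fosb, Junb, Egr1, Egr2, Egr4, Arc, Nr4a1, Npas4 and Dusp1, and each was read through the array probes that carry its name. Each gene had 1 probe, so that 10 of the 55681 gene probes, which carry 36406 gene names, were used here. The 40 arrays were 1-colour arrays labelled with Cy3, and each of the 10 groups had 4 of them. Each region had 3 wild-type groups, of which one was young (2 months) and fed normally (36 mg of α-tocopherol/kg), one was aged (29 months) with the same food, and one was aged with α-tocopherol-deficient food. The 2 Ttpa-/- groups were aged 29 months as well, and received either deficient or supplemented food (600 mg of α-tocopherol/kg). The strain background was C57Bl/6 throughout. Ttpa encodes the α-tocopherol transfer protein, which the liver needs to pass vitamin E to the blood, and the knockout is a germline one that is not limited to a cell type. There were no young Ttpa-/- mice and no Ttpa-/- mice on the normal diet.

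Immediate early genes are transcribed within minutes of neuronal firing without any new protein being made first. Calcium entry and MAP kinase signalling activate the transcription factors CREB, SRF and MEF2, which already sit on the promoters, and the transcripts are then degraded quickly. Their levels are widely used as a marker of recent neuronal activity. Fos, Fosb and Junb encode subunits of the AP-1 factor. Egr1, Egr2 and Egr4 encode zinc finger factors of the EGR family, Nr4a1 encodes an orphan nuclear receptor, and Npas4 encodes a neuronal factor that responds to calcium. Arc acts at the synapse, where it drives the removal of AMPA receptors, and Dusp1 encodes a nuclear phosphatase that switches MAP kinases off.

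The promoters show what these genes share in sequence. RefSeq windows of 300 bases around the start on GRCm38.p6 were given for 8 of the 10 genes, in 12 windows, and Arc and Egr1 had none. The binding site of CREB, the cAMP response element, is read here as the half-site TGACG on either strand. It was found in 10 of the 12 windows, and 20.8% of all 32851 promoter windows hold it. The 2 windows without it belong to Egr2, which has 5, so that each of the 8 genes had 1 or more windows with the half-site. The other 3 windows of Egr2 overlap and hold the same sites, so the 12 windows are not independent. The full element TGACGTCA, which contains a half-site on each strand, was found for Dusp1 alone, against 1.79% of all windows. The CArG box, the site of SRF, was found for Egr2 alone, against 1.63% of all windows. The site GCGNGGGCG of the EGR factors was found for Fosb and Nr4a1, against 5.55%, TATAAA for Fos and Junb, against 13.6%, and the MEF2 site for none of the 8, against 1.86%. A match is a string of letters and not a measured binding site. Sequence outside these windows was not searched, so a site not found here may lie elsewhere. The stretches below are shown because they hold the half-sites of the genes whose levels are described in most detail. Capitals mark TGACG, its reverse complement CGTCA, the full element, and in Egr2 also the CArG box in front of the half-site. The Egr2 stretch lies upstream of 3 of the 5 starts listed for that gene.
Fos (chr12:85473751-85473838, plus strand): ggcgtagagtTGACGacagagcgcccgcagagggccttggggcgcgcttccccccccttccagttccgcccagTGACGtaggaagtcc
Fosb (chr7:19310091-19310115, minus strand): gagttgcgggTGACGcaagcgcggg
Egr2 (chr10:67537793-67537822, plus strand): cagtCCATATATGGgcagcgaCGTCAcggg
Egr4 (chr6:85513684-85513776, minus strand): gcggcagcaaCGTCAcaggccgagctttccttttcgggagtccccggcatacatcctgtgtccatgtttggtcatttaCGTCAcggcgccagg
Npas4 (chr19:4990126-4990160, minus strand): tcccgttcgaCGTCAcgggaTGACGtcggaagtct
Dusp1 (chr17:26508598-26508673, minus strand): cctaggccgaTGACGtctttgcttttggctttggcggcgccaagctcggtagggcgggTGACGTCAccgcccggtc

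The level of a gene is given as the log2 of its intensity minus the log2 of the 75th percentile of the same array. It can be compared between arrays but not between genes, because each probe has its own brightness. The 75th percentile lay between 365 and 925, and each array detected 51.4% to 61.4% of its probes above background. The 40 arrays came on 5 slides of 8, and each group lay within 1 slide. Only 3 comparisons within a region were made on 1 slide, namely ageing in the cortex, the deficient diet in wild-type cerebellum, and the diets of Ttpa-/- mice in the cerebellum. In all others slide and condition cannot be told apart. Groups were compared with limma, and a gene was called when the Benjamini-Hochberg adjusted p over all tested probes was under 0.05 and the fold change over 1.5. Ttpa was detected on 4 of 4 arrays of each wild-type cerebellar group, on 0 of 4 in Ttpa-/- cerebellum on the deficient diet and on 1 of 4 on the supplemented diet, and it was too dim in the cortex to check the genotype there. Markers of cortical pyramidal neurons summed to 64.1 to 82.4 times the array's 75th percentile in the cortex and to 21.6 to 27.9 in the cerebellum, and those of cerebellar granule cells to 3.64 to 6.02 and 217 to 334. Markers of striatal medium spiny neurons summed to 37.1 to 139.7 in the cortex samples and to 51.5 to 81.0 in the cerebellum, within the range of the cortex. These are bulk samples, in which fewer cells of a type and less RNA per cell cannot be told apart.

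Each of the 10 genes was above background on all 20 cortex arrays. In the cerebellum this held for 9 genes, while Egr2 was above background on 2 of 4 young wild-type arrays, on 3 of 4 in both groups on the deficient diet, and on 4 of 4 in the remaining groups. At 29 months on the normal diet, 8 of the 10 genes were higher in the cortex of wild-type mice than in the cerebellum, and 33.6% of all 30859 tested probes were called in either direction. At 2 months the same count was 8 of 10, beside 38.4% of the tested probes. The 8 genes were Fosb, Junb, Egr1, Egr2, Egr4, Arc, Nr4a1 and Npas4 at both ages, and the arrays of the 2 regions did not overlap for any of them, as for 56.4% of the tested probes at 29 and 58.1% at 2 months. The 2 exceptions were Fos and Dusp1.

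The difference between the regions was large in the EGR family. Egr4 was at 4.41 ± 0.23 (SD over 4 mice) in the cortex and at 0.69 ± 0.12 in the cerebellum of aged wild-type mice, a difference of 3.72 on the log2 scale (SE 0.221, adjusted p = 1.08e-15 with limma) or 13.2-fold. Egr1 differed by 3.18 and Egr2 by 4.95, where the cerebellar Egr2 level was close to background. Among the AP-1 subunits, Fosb differed by 2.87 and Junb by 2.81. The Arc level differed by 3.46, that of Nr4a1 by 2.16 and that of Npas4 by 1.87. Fos stood apart from the other AP-1 subunits. Its mean level was 1.48 ± 0.24 in the cortex and 1.30 ± 0.35 in the cerebellum, and the difference of 0.19 had a 95% interval from -0.85 to 1.22. Dusp1 was at 1.52 ± 0.14 and at 1.66 ± 0.17, and its interval ran from -0.73 to 0.46. Cortex and cerebellum were hybridised on different slides here, so that the slide and the region cannot be told apart.

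**Figure D1:**
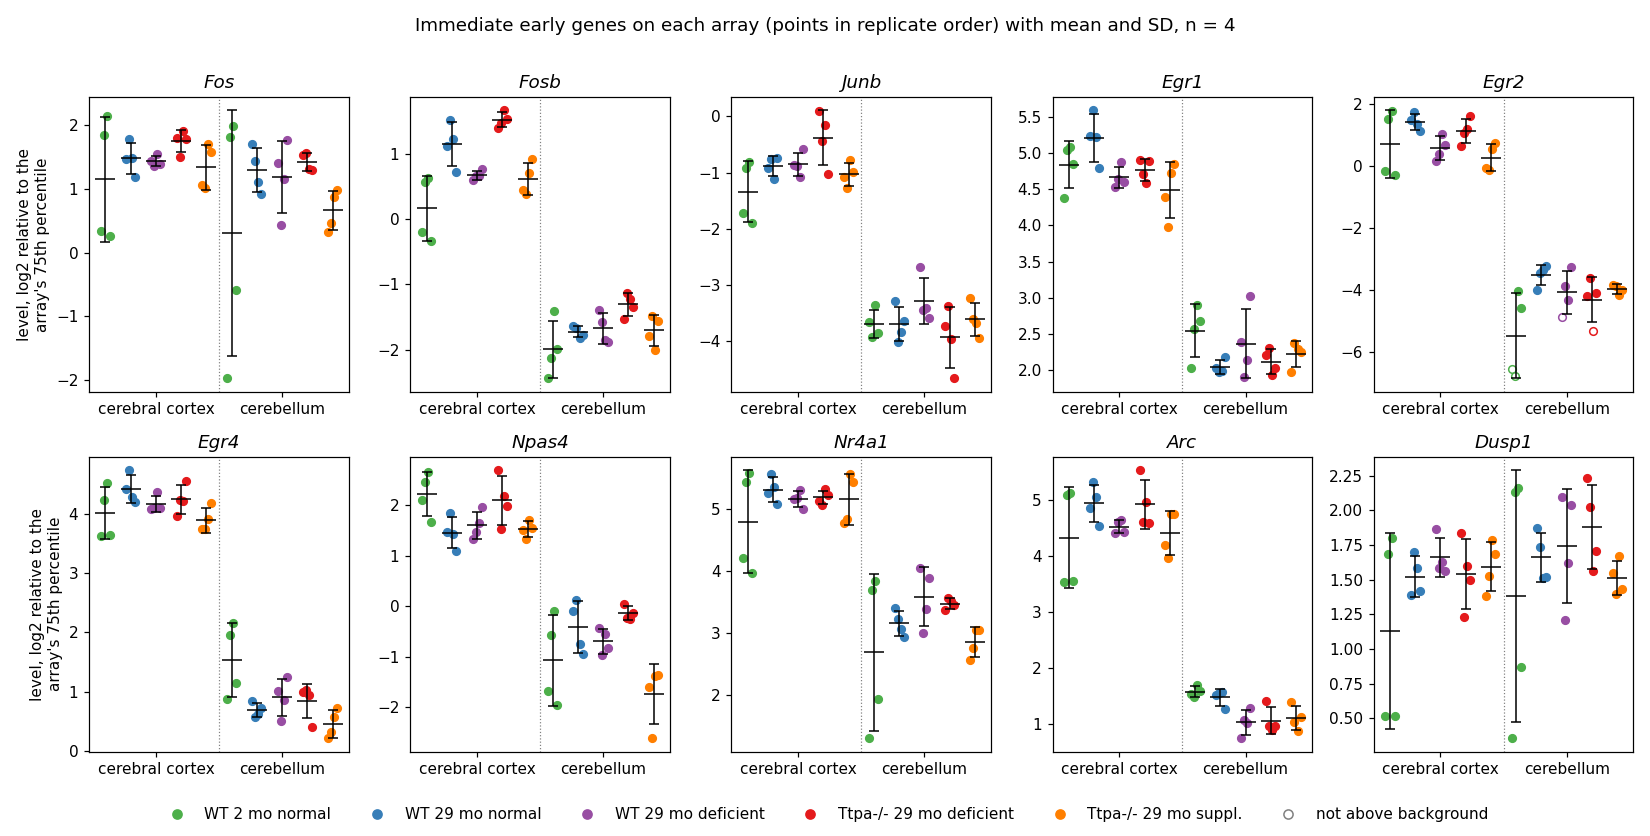
Level of each of the 10 immediate early genes (vertical axis, log2 relative to the 75th percentile of the array) on the 40 arrays, by region and group, with the mean and the SD over 4 arrays. Open points were not above background, which occurred for Egr2 in the cerebellum, and 8 of the 10 genes lay higher in the cortex in aged wild-type mice.

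Within a region, the order of the 5 groups was not the same for all genes, and the arrays of neighbouring groups overlapped in 80 of 80 cases. In the cortex, aged wild-type mice with normal food had the highest mean for 5 genes (Egr1, Egr2, Egr4, Arc and Nr4a1) and Ttpa-/- mice on the deficient diet for 3 (Fos, Fosb and Junb). The lowest mean was that of young mice for 6 genes and that of Ttpa-/- mice on the supplemented diet for 3, which were the 3 EGR genes. In the cerebellum, Ttpa-/- mice on the deficient diet had the highest mean for 4 genes (Fos, Fosb, Npas4 and Dusp1). Young mice had the highest for 3 (Arc, Egr1 and Egr4) and the lowest for 5.

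The 4 young mice did not form a uniform group, which bears on every comparison with age. In the young cortex, the level of Fos was 0.34, 1.85, 2.14 and 0.26 on replicates 1 to 4. Replicates 2 and 3 were high and replicates 1 and 4 were low. The same pair was high for Egr2, at -0.18, 1.50, 1.79 and -0.29, and for Arc, at 3.54, 5.08, 5.12 and 3.55. Nr4a1 (4.20, 5.44, 5.57 and 3.96) and Dusp1 (0.52, 1.69, 1.80 and 0.52) followed the same order. In the young cortex, 10 of 10 genes lay above their group mean on replicates 2 and 3, 0 of 10 on replicate 1 and 1 of 10 on replicate 4. The mean deviation over the 10 genes was -0.54, 0.50, 0.65 and -0.61, whereas the median over all detected probes deviated by 0.01, -0.01, -0.04 and 0.04.

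The young cerebellum was divided by the same replicate numbers for 5 of the 9 genes without Egr2, namely Fos, Egr4, Nr4a1, Npas4 and Dusp1. Fos, at -1.97, 1.82, 1.98 and -0.59, had the widest range of these genes within a group. Nr4a1 was at 1.30, 3.69, 3.83 and 1.93, and Dusp1 at 0.36, 2.13, 2.16 and 0.87. In these genes replicates 2 and 3 were again the high ones. The other 4 genes did not share this. Arc was at 1.54, 1.48, 1.70 and 1.59 in the young cerebellum, and Junb at -3.65, -3.92, -3.35 and -3.85. Fosb was at -2.44, -2.13, -1.41 and -1.99, and Egr1 at 2.02, 2.56, 2.89 and 2.68. Of the 9 genes, 1, 6, 9 and 3 lay above their group mean on replicates 1 to 4. The labels do not say whether cortex and cerebellum with the same number came from the same mouse. Among the cell type markers, the choroid plexus list (9 of 9 markers above background in the young cerebellum) summed to 391.4 on replicate 1 and to 65.2, 34.4 and 30.9 on replicates 2 to 4. In the young cortex the same list summed to 45.6 to 226.4. Markers of neurons (5 of 5 above background) summed to 464.5, 499.8, 481.3 and 550.6 in the young cortex. The part of tissue composition in the division of the young mice was not tested.

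**Figure D2:**
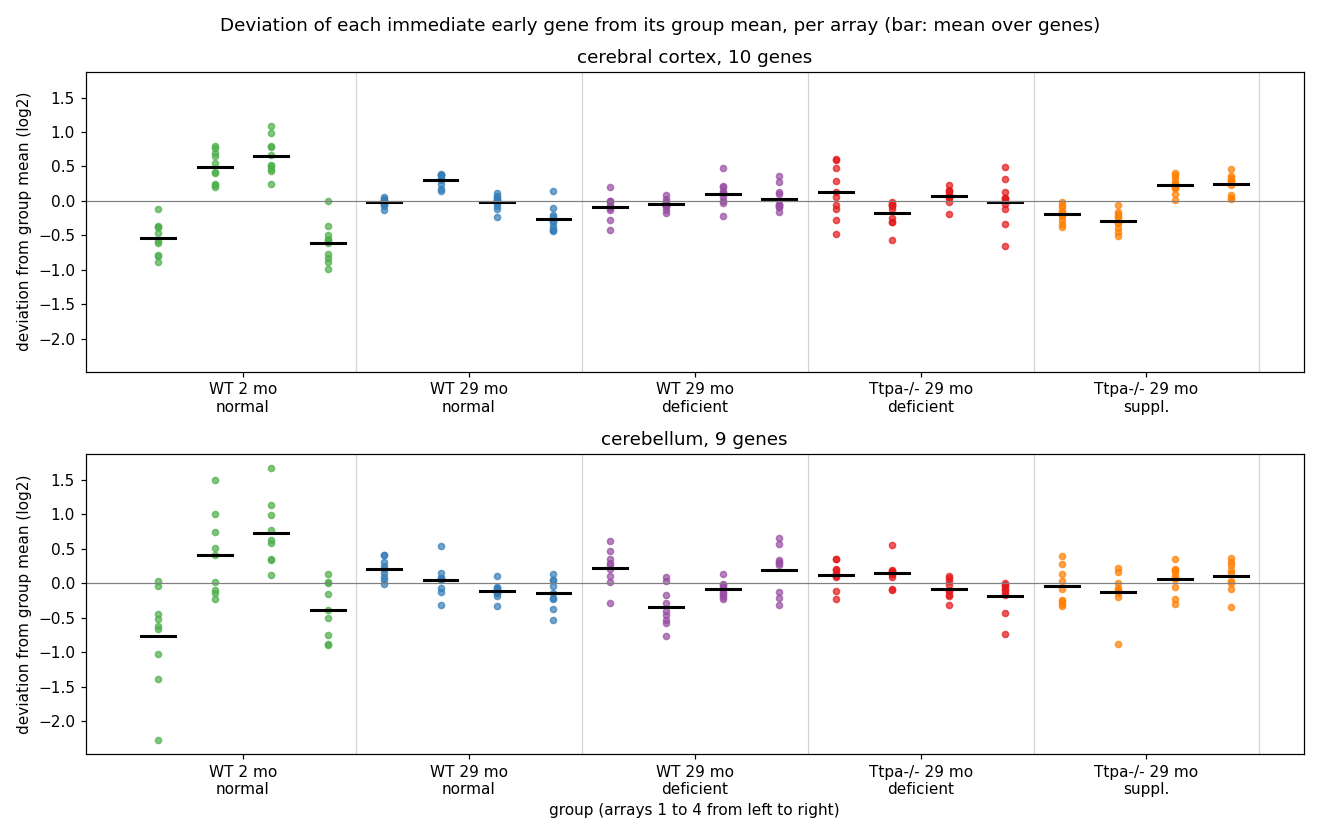
Deviation of each gene from the mean of its group on each array (vertical axis, log2), by group, with arrays 1 to 4 from left to right and the mean over the genes as a bar. The cerebellum is shown without Egr2. In the young groups the mean of replicates 2 and 3 lay above 0 and that of replicates 1 and 4 below it in both regions, with means from -0.61 to 0.65 in the cortex.

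Pooled over the 5 groups of a region, the spread between mice was larger for these genes than for the median probe. The pooled SD had a median of 0.359 over the 10 genes in the cortex and of 0.150 over 25929 probes above background on all 20 arrays, and 10 of 10 genes lay above the median probe. Egr2 (0.592), Arc (0.507), Fos (0.487) and Nr4a1 (0.429) lay above the 95th percentile of the probes, which was 0.422. In the cerebellum the median was 0.379 over 9 genes and 0.175 over 27560 probes, and Fos (0.922), Nr4a1 (0.622) and Npas4 (0.546) lay above the 95th percentile. The spread was largest in the young mice. The median SD of the 10 genes was 0.629 in the young cortex and 0.137 to 0.300 in the 4 aged groups of the cortex. In the cerebellum it was 0.623 in young and 0.171 to 0.411 in aged mice. In 2 aged groups the genes did not spread more than the probes did. The median SD was 0.137 in the cortex of wild-type mice on the deficient diet, against 0.143 over all probes, and 4 of 10 genes lay above the median probe. In the cerebellum of Ttpa-/- mice on the deficient diet it was 0.171 against 0.193, and 4 of 9 genes lay above. Fos itself was measured by 8 to 10 unflagged spots on each array, whose coefficient of variation was 1.72% to 8.13%.

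**Figure D3:**
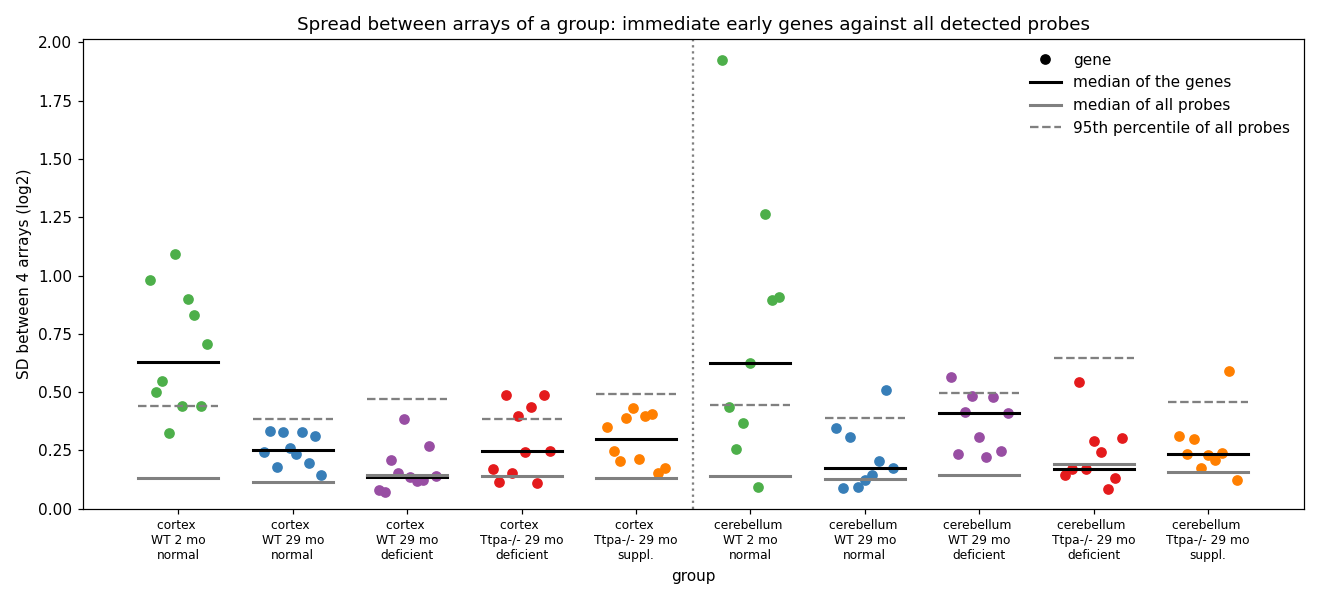
SD between the 4 arrays of each group (vertical axis, log2) for each gene (points), without Egr2 in the cerebellum, with the median of the genes in black and the median and 95th percentile of all probes above background in grey. The young groups had a median of 0.629 in the cortex and 0.623 in the cerebellum, above the aged groups.

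The genes also deviated together. Over the 20 cortex arrays, the deviations from the group means had a Pearson correlation of 0.28 to 0.98 in 45 pairs of genes, with a median of 0.72, and 0.60 on the 16 aged arrays. In the cerebellum the 36 pairs ranged from -0.13 to 0.98 with a median of 0.36, and 0.20 on the aged arrays. All genes of an array share its labelling and scan. Outside the gene lists used here, Prdm11 (r = 0.80), Ccdc88c (0.79), Zfp677 (0.77), Trim71 (0.75) and Nktr (0.74) followed the mean deviation of the 10 genes most closely in the cortex, among 13790 genes and over 20 arrays. On the 16 aged arrays the r of these 5 genes ran from 0.16 for Zfp677 to 0.80 for Ccdc88c. In the cerebellum these were Zfp418 (0.82), Siah2 (0.81), 1110054O05Rik (0.79), Colec12 (0.77) and Copb1 (0.76), among 13901 genes, and on the aged arrays their r ran from 0.21 for Zfp418 to 0.55 for Siah2. Within the lists, Trib1, a pseudokinase, had the highest r in the cortex with 0.94, and 0.92 on the 16 aged arrays. The next were Gadd45b, with 0.85 and 0.36 on the aged arrays, and Cyr61, with 0.84 and 0.37.

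Ageing in the cortex was tested between wild-type mice of 29 and 2 months on the normal diet. Fosb rose, and it was the 1 gene called of 10, while 2.09% of the 28043 tested probes were called. The other 9 genes did not pass the test. Fosb was at -0.19, 0.57, 0.63 and -0.33 in young mice and at 1.13, 1.53, 1.23 and 0.72 in aged mice. The lowest aged mouse was above the highest young mouse, so the groups did not overlap, as for 14.0% of the tested probes. The mean rose by 0.98 on the log2 scale (SE 0.195, adjusted p = 0.0018 with limma), or 1.98-fold. With any of the 8 arrays left out the difference stayed between 0.82 and 1.14 and was called. It was not called when only the 8 arrays of the comparison were fitted (adjusted p = 0.137), nor with the methods' t-test after Benjamini-Hochberg adjustment (adjusted p = 0.156). Over all 10 genes the median difference was 0.43, beside -0.03 over all tested probes, and 9 of 10 differences were positive. Npas4 was the exception, at 2.22 ± 0.44 in young and 1.46 ± 0.31 in aged mice, a difference of -0.76 (adjusted p = 0.218). Arc was 0.62 higher in aged mice (adjusted p = 0.241).

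Some tissue markers differed in the same comparison. Of 8 striatal markers, 3 fell with age, beside 0.499% of all tested probes down-regulated. The sum of the striatal markers was 73.9 to 92.5 in young and 41.4 to 53.6 in aged cortex. The sum of the blood markers was 1.74 to 7.32 in young and 18.01 to 40.80 in aged cortex. Astrocyte markers summed to 43.3 to 51.1 and 52.5 to 62.1, and those of granule cells to 3.64 to 4.43 and 4.72 to 5.64. The sums of the other 8 of 12 lists overlapped. Their part in the result was not tested.

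In the cerebellum, ageing was accompanied by a rise of Egr2 and a fall of Egr4. These were 2 called genes of 10, while 5.03% of the 30627 tested probes were called. Egr2, known outside neurons as a regulator of myelination in peripheral nerve, was at -6.55, -6.78, -4.05 and -4.60 in young and at -4.0, -3.46, -3.38 and -3.25 in aged mice. All 4 aged arrays were higher than the young ones, without overlap, as for 19.1% of the tested probes, but the highest young array came close to the lowest aged one, and 2 of the 4 young arrays were not well above background. The difference was 1.97 (SE 0.477, adjusted p = 0.0052 with limma). With normexp background correction it was 0.45 and was not called (adjusted p = 0.336), so that its size depended on the background correction. Egr4 was at 0.87, 1.95, 2.17 and 1.14 in young and at 0.84, 0.56, 0.62 and 0.73 in aged mice. Young replicates 2 and 3 were high, and replicate 1 nearly met the aged group. Egr4 fell by 0.84 (SE 0.221, adjusted p = 0.0104 with limma), or 1.79-fold. It was not called without young replicate 2 (fell by 0.70, adjusted p = 0.0644) or without young replicate 3 (fell by 0.63, adjusted p = 0.0685). In the fit of the compared arrays alone neither gene was called, with adjusted p = 0.118 for Egr2 and 0.138 for Egr4, and the methods' adjusted t-test called neither (0.158 and 0.174). These groups lay on different slides.

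Several tissue markers differed between young and aged cerebellum. Of 6 microglial markers 5 rose, with sums of 12.5 to 16.8 and 29.6 to 33.8. Of 5 blood markers 4 rose, with sums of 9.79 to 24.9 and 38.5 to 272. Among all tested probes 3.99% were called up-regulated. The choroid plexus sum was 30.9 to 391.4 in young and 23.8 to 26.9 in aged cerebellum, and that of granule cells was 302 to 334 and 217 to 258. Neuronal markers summed to 354 to 378 and 312 to 344, and hippocampal markers to 7.99 to 8.80 and 8.97 to 10.6. The sums of the other 6 of 12 lists overlapped. Their part in the results was not tested.

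The change of Egr4 with age differed between the regions. In the cortex its mean was 4.01 ± 0.44 in young and 4.41 ± 0.23 in aged mice, which was 0.40 higher (adjusted p = 0.412). The change in the cortex exceeded that in the cerebellum by 1.25 on the log2 scale (SE 0.313, adjusted p = 0.028 with limma for the interaction), and this was the 1 called gene of 10, while 1.46% of probes were called. With each of the 16 arrays left out in turn the interaction ranged from 1.04 to 1.47 and lost its call for 8 of them, and with median scaling it was 1.27 (adjusted p = 0.0971). Fitting the 16 arrays alone gave an adjusted p of 0.160. The interaction for Npas4 was -1.43 (adjusted p = 0.110).

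The deficient diet in wild-type mice was compared with the normal diet to ask whether these genes differed with low vitamin E supply alone. In the cortex, where the diets lay on different slides, 0 of 10 genes were called, beside 0.223% of the tested probes. Egr2 was the gene whose groups did not overlap, at 0.15, 0.38, 1.04 and 0.69 on the deficient and 1.48, 1.75, 1.35 and 1.12 on the normal diet, beside 2825 of 28254 tested probes. All 4 mice on the deficient diet were lower. The difference was -0.86 with a 95% interval from -1.83 to 0.11 (adjusted p = 0.387). With unadjusted p values of limma 0 of 10 were called as well, and with the methods' t-test 1, which was Egr2. The share of 0.223% does not apply to these 2 counts. In the cerebellum 0 of 10 genes were called with limma, both with adjusted and with unadjusted p values, and with the methods' t-test, beside 1.27% of the tested probes. The differences ran from -0.57 for Egr2 to 0.42 for Nr4a1.

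Ttpa-/- mice on the deficient diet were compared with aged wild-type mice with normal food, the comparison that joins genotype and diet. In the cortex 0 of 10 genes were called, beside 4.75% of all tested probes, and the unadjusted limma p and the methods' t-test also called 0. The 10 differences had a median of 0.00 and were positive for 5 genes and negative for 5. Npas4 was 0.64 higher (adjusted p = 0.158) and Junb 0.51 higher (adjusted p = 0.165). Junb was at 0.10, -0.43, -0.15 and -1.03 in Ttpa-/- mice, and without replicate 4 it was called. In the cerebellum 0 of 10 were called with limma, adjusted or not, and with the t-test, beside 4.46% of the probes. Fosb was at -1.53, -1.13, -1.22 and -1.34 in Ttpa-/- mice and at -1.63, -1.67, -1.82 and -1.77 in wild-type mice. These did not overlap, as for 17.0% of probes, and the difference was 0.42 (adjusted p = 0.159).

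Fosb was also the gene that differed between the aged groups of the cortex. It was at 0.60, 0.67, 0.67 and 0.77 in wild-type mice on the deficient diet. In Ttpa-/- mice on the same diet it was at 1.40, 1.48, 1.67 and 1.55, and on the supplemented diet at 0.45, 0.38, 0.71 and 0.92. The deficient Ttpa-/- mice were all higher than both of these groups, without overlap, as for 17.2% and 19.0% of the tested probes. They overlapped with aged wild-type mice with normal food, whose Fosb levels of 0.72 to 1.53 are given above, and the difference of 0.37 between these means was not called. FosB protein has a truncated, stable splice form that builds up under repeated stimulation, but the forms were not told apart here, where Fosb was read by a single probe at chr7:19888168-19888227 of mm9.

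On the deficient diet, Fosb was 0.85 higher in Ttpa-/- than in wild-type cortex (SE 0.195, adjusted p = 0.0052 with limma), or 1.80-fold. It was the 1 called gene of 10, beside 3.07% of the tested probes. Between the diets of Ttpa-/- mice, Fosb was down-regulated on the supplemented diet and fell by 0.91 (SE 0.195, adjusted p = 0.0028 with limma), or 1.88-fold. Again it was the 1 called gene of 10, beside 3.31% of the probes. These 2 comparisons share the 4 arrays of deficient Ttpa-/- mice and are not independent. Leaving out any of the 8 arrays kept both calls, with differences of 0.80 to 0.89 and -1.01 to -0.83. Fitting the compared arrays alone gave adjusted p values of 0.0585 and 0.0625. The 2 groups with the lower Fosb, on slide 2, lay on another slide than deficient Ttpa-/- cortex, on slide 3, so that slide and condition cannot be told apart. In both comparisons most other differences had the sign of that of Fosb without a call. The median difference of the 10 genes was 0.36 with genotype, where 9 of 10 were positive, and -0.46 with the supplemented diet, where 9 of 10 were negative. The medians of all tested probes were -0.01 and 0.02. Among the uncalled genes Junb was 0.65 lower on the supplemented diet (adjusted p = 0.0848).

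**Figure D4:**
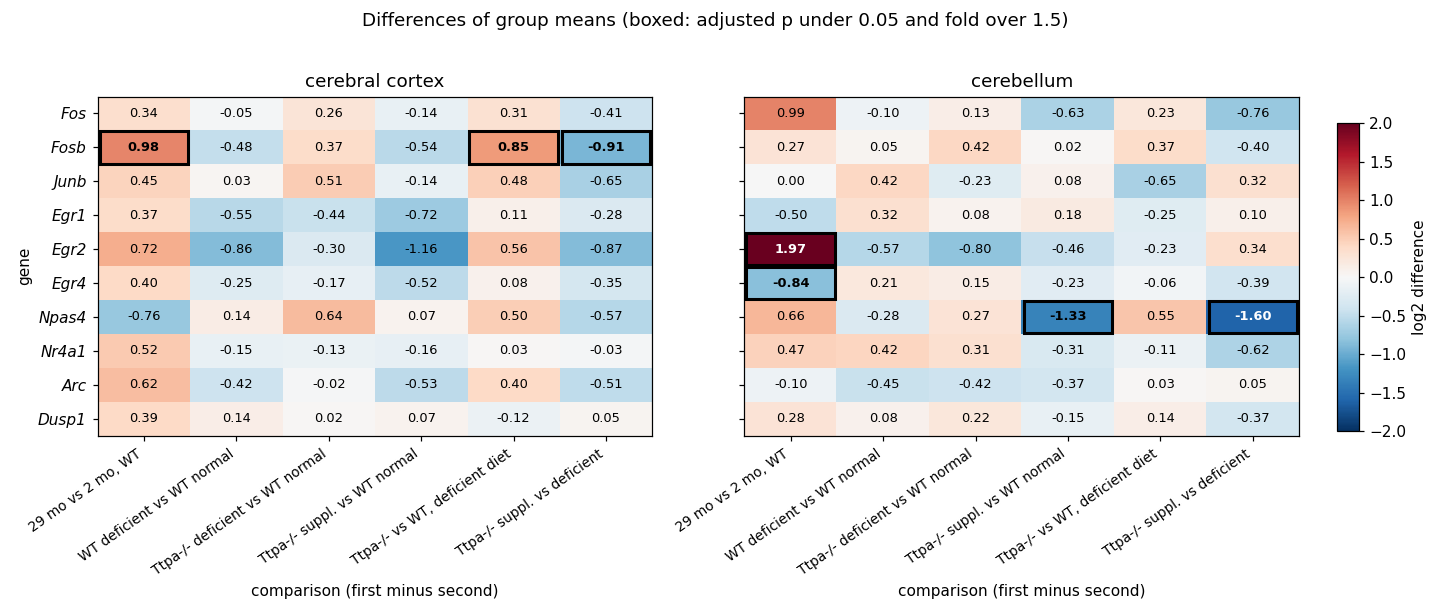
Difference of group means on the log2 scale for each gene (rows) and comparison (columns) in cortex and cerebellum, with red for higher and blue for lower in the first-named group. Boxes mark the called values, which in the cortex are those of Fosb (0.98, 0.85 and -0.91) and in the cerebellum those of Egr2, Egr4 and Npas4.

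The marker lists of the same cortex groups differed in part. The sum of 5 neuronal markers was 381 to 422 on the deficient and 426 to 453 on the supplemented diet, and 433 to 479 in wild-type mice on the deficient diet, while that of 6 oligodendrocyte markers was 144 to 179 in deficient and 210 to 275 in supplemented Ttpa-/- cortex. Between wild-type and Ttpa-/- cortex on the deficient diet, astrocyte markers summed to 52.6 to 58.3 and 42.5 to 51.4, and hippocampal markers to 25.3 to 32.2 and 21.2 to 24.9. The sums overlapped for the other 9 of 12 lists with genotype and for the other 10 with diet. Their part in the result was not tested.

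Ttpa-/- mice on the supplemented diet were compared with aged wild-type mice with normal food as well. In the cortex 0 of 10 genes were called with limma, beside 0.0920% of the tested probes. Unadjusted limma p values and the methods' t-test each called 2, Egr1 and Egr2, and that share does not apply to these counts. The difference of Egr2 was -1.16 (95% interval -2.13 to -0.19, adjusted p = 0.444) and that of Egr4 was -0.52 (adjusted p = 0.472). The groups did not overlap for these 2 genes, beside 6.88% of probes. Egr1 was 0.72 lower (adjusted p = 0.147).

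In the cerebellum, Npas4 was low in Ttpa-/- mice on the supplemented diet. Its level was -1.60, -2.62, -1.38 and -1.37 there, against 0.05, -0.23, -0.25 and -0.13 in Ttpa-/- mice on the deficient diet and -0.10, 0.13, -0.74 and -0.94 in aged wild-type mice with normal food. All 4 supplemented mice were lower than every mouse of both other groups, and replicate 2 was lowest. Young wild-type mice, at -1.96 to -0.09 in the cerebellum, overlapped with the supplemented group. Groups did not overlap for 5.33% of the tested probes between the diets and for 21.3% against wild-type mice. Npas4 recruits new inhibitory synapses onto active neurons, and its probe lies at chr19:4984356-4984415 of mm9. Between the diets of Ttpa-/- mice it fell by 1.60 (SE 0.318, adjusted p = 0.0086 with limma), or 3.04-fold. It was the 1 called gene of 10, beside 0.343% of the tested probes. Both groups lay on slide 5, so that this comparison was made within a slide. Without supplemented replicate 2 it fell by 1.31 and was not called (adjusted p = 0.0710). The call was also lost in the fit of the cerebellum alone (adjusted p = 0.103), in the fit of the compared arrays alone (0.336) and with the methods' adjusted t-test (0.308). The sums of the marker lists overlapped between these 2 groups for all 12 lists.

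Against aged wild-type mice with normal food, Npas4 in supplemented Ttpa-/- cerebellum fell by 1.33 (SE 0.318, adjusted p = 0.0051 with limma), or 2.51-fold. It was the 1 called gene of 10, beside 4.91% of the tested probes, and stayed called with any of the 8 arrays left out, between -1.51 and -1.04. The fit of the compared arrays alone gave an adjusted p of 0.0642 and the methods' adjusted t-test 0.0860. This comparison shares the supplemented arrays with the preceding one, and it runs across slides. Of the 12 marker lists, 2 did not overlap here. Oligodendrocyte markers summed to 211 to 254 in wild-type and 166 to 208 in supplemented Ttpa-/- cerebellum, and choroid plexus markers to 23.8 to 26.9 and 18.8 to 23.1. Their part in the result was not tested. Fos and Nr4a1 were also lower in supplemented than in deficient Ttpa-/- cerebellum without overlap, beside 5.33% of probes, but were not called. Fos was at 0.33, 0.47, 0.87 and 0.98 against 1.53, 1.57, 1.31 and 1.29. The difference was -0.76 (adjusted p = 0.636), and that of Nr4a1 was -0.62 (adjusted p = 0.564). On the deficient diet, 9 genes were tested between Ttpa-/- and wild-type cerebellum, because Egr2 was not above background on all arrays of either group. Of these 0 were called, beside 4.94% of probes. The unadjusted p of limma called 1, Junb, with -0.65 (adjusted p = 0.0911), and that share does not apply to it. The methods' t-test called 0. The groups did not overlap for Npas4, which was 0.55 higher in Ttpa-/- mice (adjusted p = 0.255), beside 13.5% of probes.

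The difference between the regions was tested for each comparison. Besides Egr4 with age, 0 of 10 genes were called in the other 5 interactions. The shares of all probes called were 0.0126% for the deficient diet in wild-type mice, 3.38% and 0.957% for deficient and supplemented Ttpa-/- mice against wild-type mice, 0.802% for genotype on the deficient diet and 0.0441% for the diets of Ttpa-/- mice. With unadjusted p values limma called 1, 1, 2, 1 and 2 genes in the same order, and the shares above do not apply to these counts. It was thus not shown that Fosb responded only in the cortex or Npas4 only in the cerebellum.

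Further genes of the same pathway were read from lists. Upstream activators, which comprise receptors, kinases and the factors CREB, SRF and MEF2, had 0 of 36 called with age in the cortex, where the median difference was -0.03 as over all probes, and 2 of 36 fell in the cerebellum, beside 1.04% of all probes. These were Camkk2 (fell by 0.70) and Camk4 (fell by 0.59), which encode calcium-dependent kinases. A minority of the other immediate early transcription factors rose with age in each region. In the cortex 7 of 21 tested genes were up-regulated and 0 down-regulated, beside 1.59% of all probes up-regulated. The median difference of the list was 0.44, beside -0.03 over all tested probes. They included Atf3 (1.82), a factor induced by cell stress, Bhlhe40 (1.1) and the clock gene Per1 (0.90). In the cerebellum 8 of 21 were up-regulated, beside 3.99% of all probes, and Klf10 fell by 0.70. Among those up-regulated were Klf2 (1.36), Atf3 (1.14) and Per1 (1.1). Maff was called in both regions, but it was above background on 1 of 4 young arrays in the cortex and on 2 of 4 in the cerebellum, and no size is given. Atf3 was at -3.48, -3.61, -3.52 and -3.29 in young cortex and at -1.62, -1.40, -1.46 and -2.15 in aged cortex. The groups did not overlap, and the 4 young mice lay closer together than they did for Fos and Arc.

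MAP kinase phosphatases and feedback inhibitors act with Dusp1. In the cortex 2 of 13 rose with age, beside 1.59% of all probes, which were Dusp4 (0.92) and Dusp5, for which no size is given because it was above background on 1 of 4 young arrays. In the cerebellum 0 of 13 were called, beside 5.03% of all probes. Dusp1 itself differed by 0.39 (adjusted p = 0.600) and 0.28 (adjusted p = 0.665). Of the heat shock and acute stress genes, 1 of 12 rose in the cortex, Hmox1 (0.68), and 3 of 12 in the cerebellum, Zbtb16 (1.82), Hmox1 (0.76) and Hspb1 (0.60), beside 1.59% and 3.99% of all probes.

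Activity-regulated effectors include secreted and synaptic proteins made after the immediate early factors. With age 1 of 30 rose in the cortex, the kinase gene Sik1 (0.87), and 6 of 31 in the cerebellum, among them Apold1 (1.80), Spry4 (1.06) and Sik1 (0.94), beside 1.59% and 3.99% of all probes. Ptgs2 was called as well, but it was above background on 0 of 4 young cerebellar arrays. In the deficient diet cortex, Ttpa-/- mice had higher Inhba (1.13), Nptx2 (1.04) and Pim1 than wild-type mice, 3 of 31, beside 1.53% of probes up-regulated. No size is given for Pim1, which was detected on 1 of the 4 wild-type arrays. Nptx2 encodes a pentraxin that clusters AMPA receptors, and Inhba a subunit of activin. In Ttpa-/- cortex Nptx2 (-1.26) and Inhba (-1.17) were lower on the supplemented than on the deficient diet, beside 1.99% of probes down-regulated. This comparison shares the deficient Ttpa-/- arrays with the preceding one. Nptx2 in the cortex was at 1.15, 0.66, 0.95 and 0.60 in deficient Ttpa-/- mice, against -0.47, -0.45, -0.56 and -0.20 in supplemented Ttpa-/- mice. All 4 deficient mice were higher, as they were for Fosb on the same arrays, and here too slide and condition cannot be told apart. Wild-type mice on the deficient diet had lower Inhba (-0.86), Bdnf (-0.65) and Pcsk1 (-0.60) than those on the normal diet, beside 0.106% of probes down-regulated. For this comparison and for the diets of Ttpa-/- cortex, the number of effectors tested is not given beside the share. The wild-type groups also lay on different slides. Of 12 marker lists, 1 did not overlap between them. Striatal markers summed to 66.3 to 139.7 on the deficient and 41.4 to 53.6 on the normal diet, and their part was not tested.

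In the cerebellum, the effectors Vgf and Nrn1 fell together with Npas4 between the diets of Ttpa-/- mice. These were 2 of 29 tested effectors, beside 0.134% of probes down-regulated. Vgf, a neuropeptide precursor, was at 2.71, 2.03, 2.01 and 2.52 on the supplemented and at 3.18, 3.29, 2.93 and 3.28 on the deficient diet and fell by 0.85 (adjusted p = 0.0143 with limma). Nrn1, which encodes the surface protein neuritin, fell by 0.70. The groups did not overlap for either gene. Among the other immediate early factors 1 of 21 fell, Fosl2 (by 1.17), an AP-1 subunit. Against wild-type mice with normal food, 5 of 31 effectors were lower in supplemented Ttpa-/- cerebellum, beside 1.57% of probes down-regulated, among them Vgf (-0.90), Nrn1 (-0.79) and the kinase gene Plk3 (-0.71), while Nptx1 was 0.67 higher. Nptx2 was also called lower, but it was above background on 0 of 4 supplemented arrays, and no size is given.

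**Figure D5:**
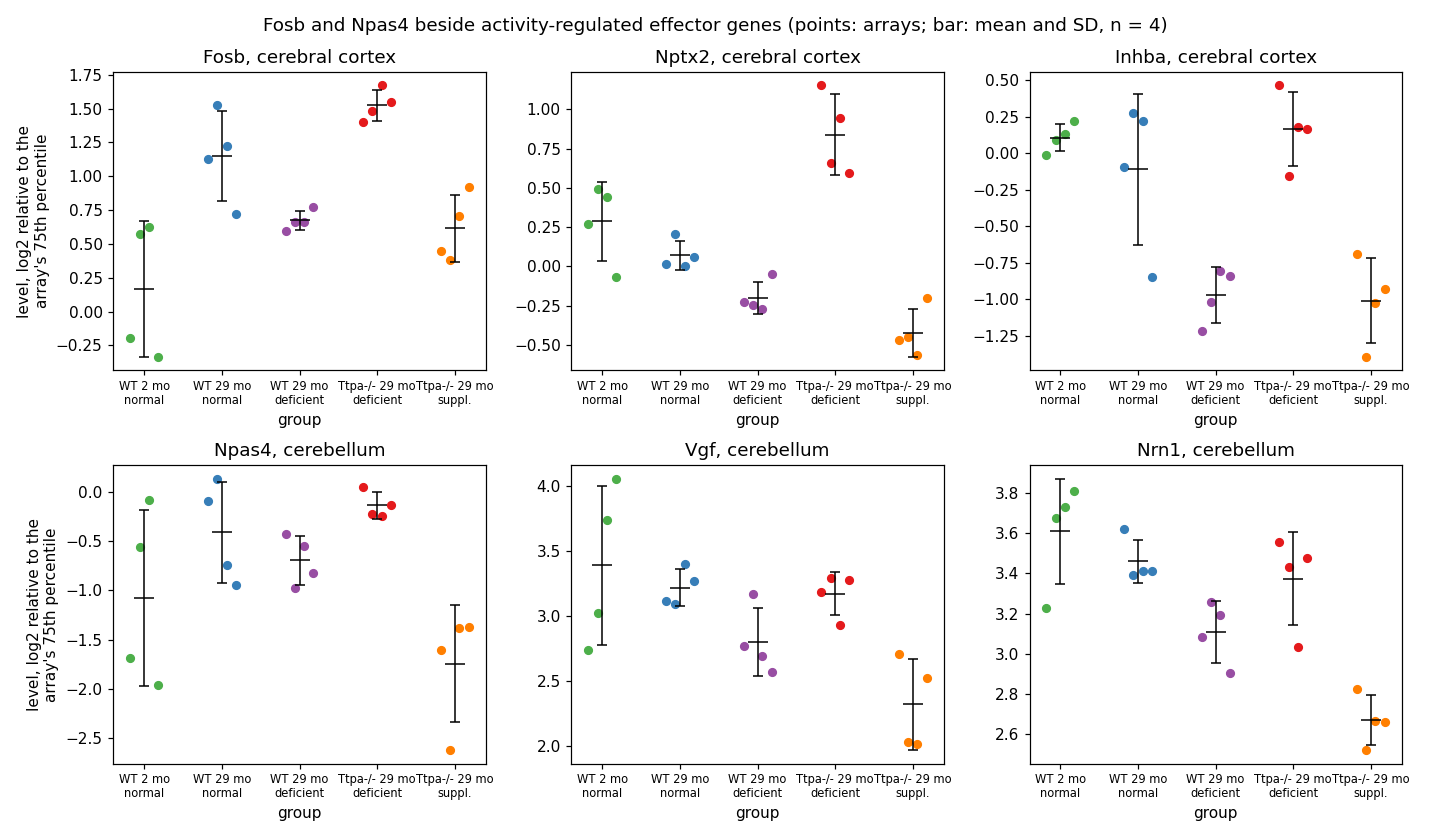
Level of Fosb, Nptx2 and Inhba in the cortex (upper row) and of Npas4, Vgf and Nrn1 in the cerebellum (lower row) on each array (vertical axis, log2 relative to the 75th percentile), with the mean and SD over 4 arrays. Deficient Ttpa-/- mice lay above supplemented Ttpa-/- mice on all 4 arrays in each panel.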

How the data were processed

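Total RNA of 40 samples was hybridised to Agilent 1-colour arrays of 60-base probes. For every spot, the authors deposited an intensity from which local background and spatial trend had been removed (Feature Extraction 10.7.3.1 per the file headers, 10.1.1.1 per the labels) without normalization between arrays, and a table of log2 values. After centring, the median distance of that table from the values used here was 0.000915. Flagged spots (95 to 148 per array) were left out, spots of a probe averaged, and log2 intensities were centred on the 75th percentile of their array. limma 3.58.1 in R 4.3.3 was fitted to all 40 arrays with 1 coefficient per group. Probes detected on all 4 arrays of 1 or more compared groups were tested, and Benjamini-Hochberg adjustment covered all of them. Calls needed an adjusted p under 0.05 with more than 1.5-fold change. Where single genes are named from other lists, they are at most the 4 called genes with the largest difference per list and comparison. The similar genes are those with the highest Pearson correlation with the mean deviation of the members. The 10 genes, the lists and the tests were chosen with earlier results of these data known. The model was tested on simulated data. Replicates are separate samples per the labels, and 4 mice per group limit the precision. A gene outside the 10 with several probes was represented by the brightest. The study's methods state the fold change of 1.5 and log2 values, and their t-test was an alternative, as were other scalings and leaving out each array. Probe positions are on mm9, promoters on GRCm38.p6.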

Additional observations from a re-analysis of the deposited data

Results flagged for a closer look

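In 3 of the 100 combinations of gene and group, 1 of the 4 mice lay far from the other 3, where chance alone would give about 5%. Egr4 in the cortex of wild-type mice on the deficient diet was 4.36 in replicate 3 and 4.08 to 4.10 in the others. In the cerebellum of Ttpa-/- mice on the deficient diet, Egr4 was 0.41 in replicate 4 and 0.95 to 1.03 in the others, and Arc was 1.42 in replicate 1 and 0.89 to 0.97 in the others. The change of Egr4 with age differed between cortex and cerebellum by 1.25 on the log2 scale in the interaction test.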

How the results depend on the processing

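Among the differences called in the main fit or in an alternative, none changed its direction. Differences called in neither were not compared for direction. Among the changes in the counts of called members were the following. With median scaling the ageing interaction with region had 0 called members in place of 1. With normexp, the diets of Ttpa-/- mice in the cortex had 2 in place of 1, and ageing in the cerebellum 1 in place of 2. Fitting only the compared groups left 0 called members for ageing in both regions and for its interaction, for genotype on the deficient diet in the cortex, for the diets of Ttpa-/- mice in both regions, and for supplemented Ttpa-/- against wild-type cerebellum. These fits have fewer arrays. A fit of the cerebellum alone left 0 for the diets of Ttpa-/- mice. With array weights, ageing in the cortex and the diets of Ttpa-/- mice in the cortex had 2 each, the other 3 comparisons of aged cortex with wild-type mice on the normal diet had 1 each in place of 0, the ageing interaction had 3, and the interactions of the deficient diet in wild-type mice, of supplemented Ttpa-/- mice and of genotype had 1 each. With unadjusted p values of limma there were 3 for ageing in the cortex, 2 each for supplemented Ttpa-/- cortex and for the diets of Ttpa-/- mice in the cortex, 1 for genotype in the cerebellum, 4 for the ageing interaction, and 1, 1, 2, 1 and 2 for the other interactions. The methods' t-test, unadjusted, called 2 for ageing, 1 for the deficient diet in wild-type mice, 2 for supplemented Ttpa-/- mice and 3 for the diets of Ttpa-/- mice in the cortex, and 2 and 3 for the last pair in the cerebellum. After Benjamini-Hochberg adjustment it called 0 for ageing in both regions and for supplemented Ttpa-/- mice and the diets of Ttpa-/- mice in the cerebellum. It also lost the call of Nr4a1 between cortex and cerebellum at 2 months (adjusted p = 0.0527 with that t-test). The cause of these changes was not tested. For the counts without adjustment, the share of all probes under the same rule is not given here.

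Leaving out 1 array at a time, the count ranged from 0 to 1 for the ageing interaction, for deficient Ttpa-/- against wild-type cortex, for the interactions of genotype and of the diets of Ttpa-/- mice, and for genotype and the diets of Ttpa-/- mice in the cerebellum. It ranged from 1 to 2 for the diets of Ttpa-/- mice in the cortex and from 1 to 3 for ageing in the cerebellum. For cortex against cerebellum at 2 months it ranged from 8 to 9.

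Within a region, the replicate numbers were not taken to pair the samples, since no 2 compared groups had all 4 same-numbered pairs correlated over 0.1. Between cortex and cerebellum, 4 of 4 same-numbered pairs were over 0.1 for Ttpa-/- mice on the deficient diet (0.18 to 0.63), 3 of 4 for Ttpa-/- mice on the supplemented diet and for aged wild-type mice with normal food, 1 of 4 for young mice and 2 of 4 for the deficient wild-type group, beside a median of -0.06 over pairs of other numbers. Whether these came from the same mice is not given in the labels. With the replicate number as a block, 1 member was called for ageing in the cortex and 2 in the cerebellum, as without it. No member's call changed in any comparison, those between the regions included. This block gives all samples of a number a common effect across the groups and does not stand for a mouse. It therefore cannot test whether the samples of the regions are paired. A block for the slide was not run, since each group lay within 1 slide, and another probe per member could not be tried, since each had 1. The t-test gave no interactions. Dim signal limited Egr2 in the cerebellum.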
